A study of Mus musculus with 36 samples.

Results

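Middle dips are stretches of middle replication timing (RT) that interrupt early-replicating sequence, so that a middle domain touches an early domain on its left and another on its right. They were selected on the RT states themselves, as autosomal middle (M) domains between 2 early (E) domains, after dropping those in which more than 50% of the bases are unknown in the mm9 assembly. This left 185 dips in the map of CH12 cells, 276 in the map of primary B cells and 309 in a map of mouse embryonic fibroblasts (MEFs), 770 in all, among 7028 autosomal domains of the 3 maps and 7437 with chromosome X included. The CH12 map is of shLacZ cells, a mouse B cell lymphoma line (clone F3) infected with a lentivirus carrying a short hairpin RNA against the bacterial gene LacZ, which has no mouse target and served as the control for infection, and selected with puromycin. The labels give culture with IL4, CD40 and TGF beta stimulation, naming CH12 cells, and repeat it for every library. The primary B cell map (priB WT) is of activated splenic B cells of wild type mice. The map named MEF WT is tied to no sample by the labels, so its animals, age and culture are not given in the sources used here. Repli-seq labels newly made DNA, sorts cells into early and late S phase and sequences the labelled DNA of both fractions. The series holds 36 libraries in 7 groups, of which 4 of CH12 shLacZ and 4 of priB WT stand behind the maps used. Each map gives 1 state to each stretch of 20 kb bins and no RT value, reads of replicates were pooled before any state was assigned, and read depth is unknown from the maps. With 1 map per condition no difference between maps could be tested, and the intervals given cover counting over dips or genes only.

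Mammalian chromosomes are copied in large domains, where clusters of origins fire together at a set time of S phase. Early domains are generally rich in genes and in transcribed, open chromatin, and late domains are generally poor in genes and close to the nuclear lamina. Sequence of middle timing often lies where a fork travels from an early into a late domain. In a dip that slope goes down and comes back up without reaching the late state, so it lies between neighbouring early regions and not at the border of a late one.

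The promoters of genes that start inside dips are shown first, because the make-up of these promoters was one of the measures in which dips stood apart from the early sequence that touches them. The 7 sequences below lie in places where all 3 maps had a matched dip. They are the 250 bases before the annotated gene start, 5′ to 3′ on the strand of the gene, in NCBIM37 (mm9) coordinates, and were chosen as examples after their values were seen. Capitals mark every CG dinucleotide (CpG). A promoter was called CpG-rich where these bases held at least 50% G and C and the CpG count was at least 0.6 of that expected from the base composition. Over all 21418 autosomal protein-coding genes, 38.8% of promoters passed. The first 3 are CpG-rich. Gphn encodes gephyrin, the scaffold of inhibitory synapses and an enzyme of molybdenum cofactor synthesis, Sdk2 encodes a cell adhesion protein of the retina, and Lyrm4 encodes a partner of the mitochondrial iron-sulfur cluster machinery.
Gphn, chr12:79327392-79327641, plus strand: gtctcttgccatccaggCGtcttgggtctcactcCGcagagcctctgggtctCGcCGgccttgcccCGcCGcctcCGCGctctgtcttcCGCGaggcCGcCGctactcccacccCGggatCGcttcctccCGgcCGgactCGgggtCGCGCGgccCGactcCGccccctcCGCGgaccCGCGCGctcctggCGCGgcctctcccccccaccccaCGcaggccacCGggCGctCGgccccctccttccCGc
Sdk2, chr11:113928361-113928610, minus strand: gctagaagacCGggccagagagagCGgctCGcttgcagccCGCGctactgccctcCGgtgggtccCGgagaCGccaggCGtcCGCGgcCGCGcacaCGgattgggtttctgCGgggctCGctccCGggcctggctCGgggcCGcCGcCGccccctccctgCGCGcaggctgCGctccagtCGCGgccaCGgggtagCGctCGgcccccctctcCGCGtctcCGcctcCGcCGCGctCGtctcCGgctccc
Lyrm4, chr13:36209227-36209476, minus strand: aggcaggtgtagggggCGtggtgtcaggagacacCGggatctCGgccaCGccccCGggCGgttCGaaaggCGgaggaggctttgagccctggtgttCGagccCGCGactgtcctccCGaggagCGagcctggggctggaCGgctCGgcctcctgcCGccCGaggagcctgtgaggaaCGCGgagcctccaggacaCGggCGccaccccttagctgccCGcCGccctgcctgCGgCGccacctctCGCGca
The next 4 are CpG-poor and belong to tandem gene families. Il11ra2 is a copy of the interleukin 11 receptor alpha gene, Naip2 encodes a sensor of bacterial proteins in the inflammasome, Zfp781 a zinc finger protein, and Olfr530 an olfactory receptor.
Il11ra2, chr4:42679296-42679545, minus strand: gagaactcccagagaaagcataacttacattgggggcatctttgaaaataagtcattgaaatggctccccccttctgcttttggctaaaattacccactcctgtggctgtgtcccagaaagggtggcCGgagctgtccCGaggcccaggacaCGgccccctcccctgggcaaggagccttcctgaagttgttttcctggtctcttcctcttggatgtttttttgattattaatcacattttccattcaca
Naip2, chr13:100972048-100972297, minus strand: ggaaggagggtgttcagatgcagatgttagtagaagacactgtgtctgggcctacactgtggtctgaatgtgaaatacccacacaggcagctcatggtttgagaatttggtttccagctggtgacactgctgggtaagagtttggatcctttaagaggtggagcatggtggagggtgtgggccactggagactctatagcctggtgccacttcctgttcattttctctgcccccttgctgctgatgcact
Zfp781, chr10:81373645-81373894, minus strand: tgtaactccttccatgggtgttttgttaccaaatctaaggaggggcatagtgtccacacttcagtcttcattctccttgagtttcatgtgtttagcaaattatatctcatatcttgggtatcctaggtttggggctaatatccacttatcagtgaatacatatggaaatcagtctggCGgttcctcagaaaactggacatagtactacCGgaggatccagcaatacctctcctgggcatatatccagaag
Olfr530, chr7:147559566-147559815, minus strand: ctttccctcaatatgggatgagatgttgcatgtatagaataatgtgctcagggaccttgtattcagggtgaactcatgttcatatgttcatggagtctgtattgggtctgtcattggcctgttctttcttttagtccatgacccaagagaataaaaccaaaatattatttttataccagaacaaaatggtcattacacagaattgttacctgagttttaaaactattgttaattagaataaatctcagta
The Gphn window held 34 CpGs, that of Sdk2 37 and that of Lyrm4 27. Il11ra2 had 3, Zfp781 had 2, and the windows of Naip2 and Olfr530 had 0. Across all genes that start in dips, 29.1% of promoters were CpG-rich in CH12 cells (275 of 944, Wilson 95% interval 26.3 to 32.1%), 29.96% in primary B cells (467 of 1559, 27.7 to 32.3%) and 29.3% in MEFs (557 of 1904, 27.3 to 31.3%). In the early domains that touch the dips the shares were 46.7%, 46.6% and 48.0%. These intervals did not overlap in any map. Late domains had 18.9%, 14.2% and 9.61%. Dips lay between early and late sequence in this measure. Middle domains between an early and a late domain had 37.2%, 31.3% and 29.95%, and those between 2 late domains had 42.9%, 38.2% and 31.0%. Genes of a tandem family share ancestry and neighbourhood and are not independent. Without the genes whose symbols start with Olfr, Vmn, Gm, Krt or Serpin the shares in dips rose to 37.1%, 39.2% and 36.4%, and those in the touching early domains were 49.1%, 48.9% and 50.4%, so the gap became smaller and kept its direction.

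Dips were fewer and shorter in CH12 cells than in the other maps. Their median length was 400 kb in CH12 cells (order-statistic 95% interval 360 to 480 kb), 560 kb in primary B cells (520 to 640 kb) and 740 kb in MEFs (660 to 840 kb). The shortest and longest were 60 and 1920 kb in CH12 cells, 80 and 3480 kb in primary B cells, and 40 and 3880 kb in MEFs. The middle quartiles spanned 240 to 720 kb, 320 to 880 kb and 420 to 1220 kb. The study smoothed RT over a span of 300 kb, and 60 dips in CH12 cells, 56 in primary B cells and 39 in MEFs were shorter than this span. At the other end, 22, 50 and 102 dips were at least 1000 kb long. In each map dips were longer than middle domains between early and late sequence, whose medians were 300, 380 and 540 kb. Those between 2 late domains had medians of 500, 560 and 600 kb, so dips were shorter than these in CH12 cells, equal in primary B cells and longer in MEFs. How much of the difference between maps comes from the cells and how much from the RT values that separate the states in each map cannot be told apart, since each map was segmented on its own.

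**Figure D1:**
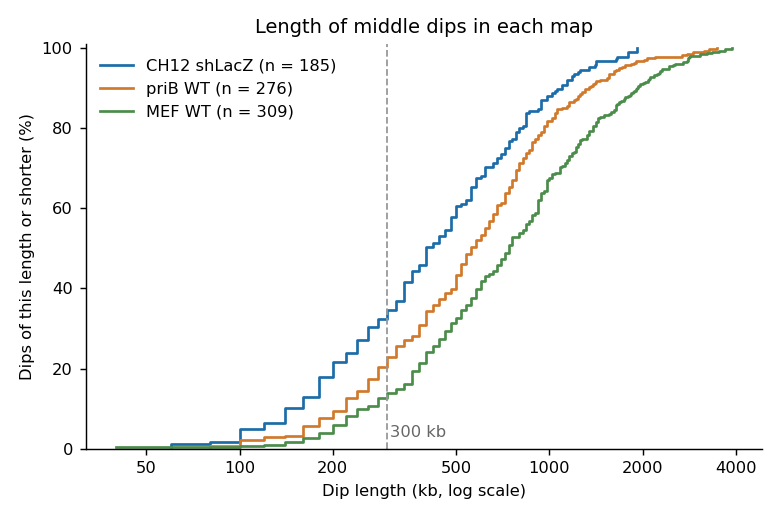
Cumulative share of dips (%, y axis) up to a given length (kb, log x axis), 1 line per map, with the 300 kb smoothing span dashed. The CH12 line lies left of the priB line and the MEF line lies furthest right over most of the range, with medians of 400, 560 and 740 kb.

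Dips held 98.4 Mb in CH12 cells, 193.8 Mb in primary B cells and 289.6 Mb in MEFs, which is 3.98%, 8.03% and 11.7% of autosomal bins. Of all middle bins they held 14.4%, 24.9% and 30.3%. Most early domains touched a dip, 293 of 537 (54.6%) in CH12 cells, 422 of 631 (66.9%) in primary B cells and 459 of 567 (81.0%) in MEFs. Early domains with a dip at both ends numbered 77, 130 and 159. The early flanks had median lengths of 720, 820 and 1000 kb, and 24, 52 and 62 dips were longer than both of their flanks. Dips also occurred in chains. A block was counted as an unbroken run of early and middle domains without a late domain, from its first to its last early domain. Middle domains dropped for unknown bases stayed in a block but were not counted as dips. At least 3 dips were held by 22 of 338 blocks in CH12 cells, 34 of 354 in primary B cells and 36 of 258 in MEFs. Those blocks held 43.2%, 46.7% and 49.8% of all dips. The block with the most dips in CH12 cells had 6 and ran from chr13:29000001 to 38240000. The one with most in primary B cells had 7, at chr13:91240001-105120000, and in MEFs 9, at chr14:52400001-71260000.

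Chromosome 13 carried the most dips for its early sequence in all 3 maps, with 5.68 per 10 Mb of early bins in CH12 cells, 6.15 in primary B cells and 7.32 in MEFs. The medians over the 19 autosomes were 3.41, 3.86 and 3.90. Chromosome 2 had the fewest per early sequence in primary B cells (2.81) and MEFs (2.49). In CH12 cells chromosome 18 had 1 dip and chromosome 19 had 2, against 11 and 10 in primary B cells and 11 and 10 in MEFs. The only dip of chromosome 18 in CH12 cells was, with one on chromosome 6, the longest of that map at 1920 kb. On chromosome X, from which no members were taken, there was 1 such domain in CH12 cells, 6 in primary B cells and 0 in MEFs.

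**Figure D2:**
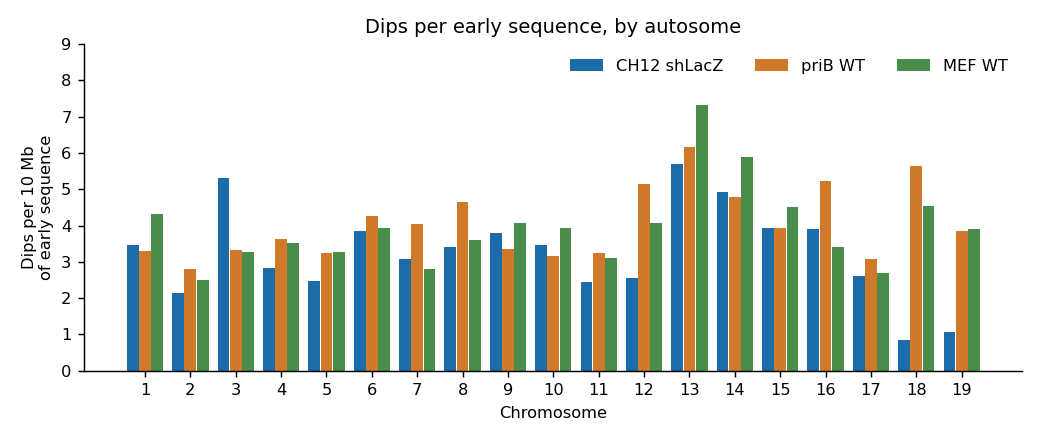
Dips per 10 Mb of early bins (y axis) on each autosome (x axis), 1 bar per map and chromosome. Chromosome 13 has the tallest bar of every map, and the CH12 bar of chromosome 18 is the lowest of all at 0.85.

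The next question was what state the same sequence had in the other maps, which the choice of the members did not use. Of 4921 CH12 dip bins, 34.5% were early, 63.0% middle and 2.44% late in primary B cells, and 47.6%, 50.2% and 2.19% were early, middle and late in MEFs. Over all CH12 middle bins the early share was 26.9% in primary B cells and 34.5% in MEFs, and the late share 5.57% and 6.99%. Dip sequence of primary B cells was 13.2% early and 22.2% late in CH12 cells, and 41.5% early and 3.18% late in MEFs, where all middle bins of that map were 6.85% and 27.4% early and 38.6% and 11.3% late. Dip sequence of MEFs was 14.9% early and 41.5% late in CH12 cells, and 19.7% early and 23.6% late in primary B cells, beside 8.78% and 15.4% early and 49.4% and 31.8% late over all MEF middle bins. In each of these 6 comparisons the early share was higher in dips than in middle domains between early and late sequence, and lowest in middle domains between 2 late domains. Dips lie next to early sequence on both sides, and how far edges that shift between maps account for the order was not tested. Without the first and last 40 kb of each dip all 6 early shares were lower. The largest fall was from 34.5% to 29.9% for CH12 dips in primary B cells. All 6 stayed within the interval of the value over whole dips. That trim is shorter than the median distance between edges of dips matched between maps (given below), 60 kb between the B cell maps and 80 kb against MEFs. The other middle domains were not trimmed, so the part of edges stays untested.

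**Figure D3:**
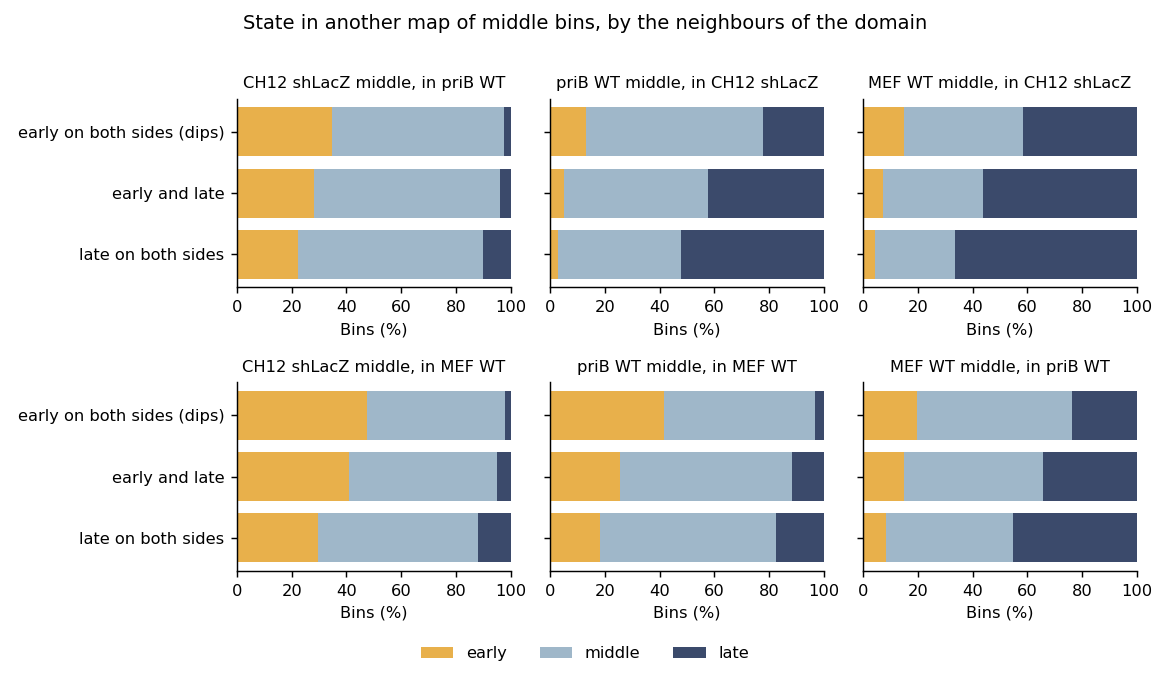
Share of middle bins (%, x axis) that were early, middle or late in another map, with 1 panel per pair of maps and 1 bar for dips, for middle domains between early and late, and for those between late domains. The early part of the bar is longest for dips in all 6 panels, and the late part is shortest for dips in all 6.

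Each dip was then read as a whole, and many were of mixed state. Of 185 CH12 dips, 54 (29.2%, 23.1 to 36.1%) were early throughout in primary B cells, 90 were part early and part middle, 36 were middle throughout and 5 held late bins. In MEFs 72 were early throughout, 66 were part early, 42 were middle throughout and 5 held late bins. Dips of 1 state throughout in primary B cells were short, with medians of 220 kb (early) and 300 kb (middle). Those part early and part middle had a median of 590 kb. Of CH12 dips under 300 kb, 55% were early throughout and 30% middle throughout in primary B cells. Of those of 300 kb or longer, 16.8% and 14.4% were. Of the 276 dips of primary B cells, 28 were early throughout and 100 held late bins in CH12 cells, and 85 were early throughout and 13 held late bins in MEFs. Of the 309 dips of MEFs, 21 were early throughout and 172 held late bins in CH12 cells, and 27 and 110 did so in primary B cells. Middle domains between early and late sequence held late bins more often than dips in each comparison. Read in CH12 cells, 87.1% of those of primary B cells and 88.6% of those of MEFs did so, beside 36.2% and 55.7% of dips. Dips early throughout in both other maps numbered 36 in CH12 cells, 19 in primary B cells and 16 in MEFs. Dips with late bins in both others numbered 0, 9 and 102. Late throughout was rarer. It was found for 2 CH12 dips in MEFs and 0 in primary B cells, for 1 dip of primary B cells in each of the other maps, and for 28 MEF dips in CH12 cells and 8 in primary B cells. Unknown bases bear on the CH12 count. Of the 36 dips early in both other maps, 6 held a bin of only unknown bases, and so did 13 of all 185. Of the 14 CH12 domains dropped for unknown bases, 10 were early throughout in both other maps.

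The dips early throughout in both other maps are given for the 3 longest of each map. The longest in CH12 cells was 720 kb at chr2:71780001-72500000 and holds the starts of Rapgef4, which encodes the cyclic AMP sensor EPAC2, and Cdca7, a cell cycle gene. The next was 620 kb at chr3:51580001-52200000 and holds Maml3, a coactivator of Notch signalling that covers 53.0% of it, and Foxo1, a transcription factor needed in B cell development. In both other maps all 31 bins of this dip were early. The next in length, at chr13:34460001-34960000, holds the starts of 1300014I06Rik, Fam50b and Gm8223. Among dips of primary B cells they were a 500 kb dip at chr17:75180001-75680000 on Ltbp1, which encodes a protein that binds latent TGF beta, a 440 kb dip at chr10:61180001-61620000 with the collagen gene Col13a1 and the endocrine regulator Neurog3, and a 400 kb dip at chr3:121380001-121780000 with F3, which encodes tissue factor, and Abca4, a transporter of photoreceptors. In MEFs they were a 1020 kb dip at chr1:36940001-37960000 with 14 gene starts, among them Inpp4a, a 720 kb dip at chr12:32900001-33620000 with Nampt, the enzyme that salvages nicotinamide for NAD, and a 640 kb dip at chr12:100480001-101120000 with the forkhead gene Foxn3.

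The Hoxb and type II keratin clusters were singled out after their values were seen. The Hoxb cluster, a set of homeobox genes that pattern the body axis, had 10 gene starts in a 480 kb CH12 dip at chr11:96000001-96480000. All 24 bins of it were early in primary B cells and in MEFs. Of 40 genes whose symbols start with Hox, these 10 (25%) were the only ones in a dip of any map. Over all autosomal coding genes 4.41% of starts lay in CH12 dips. In CH12 cells 9 of the 40 Hox genes were early and 0 late. The rest were middle there, most of them outside this dip, so middle timing was not particular to Hoxb. Early Hox genes numbered 31 in primary B cells and 40 in MEFs. The type II keratin cluster on chromosome 15 differed between B cells and MEFs. It had 12 Krt starts in a CH12 dip at chr15:101360001-101700000 and 16 in a dip of primary B cells at chr15:101280001-101740000, and all bins of both dips were early in MEFs.

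Genes used by one cell type and not the other were looked up from lists of B cell and fibroblast genes that were chosen with earlier results of these data known. Over all autosomal protein-coding genes, 4.41% of starts lay in dips of CH12 cells, 7.28% in dips of primary B cells and 8.89% in dips of MEFs, and 51.8%, 59.2% and 61.1% were early. Of 30 B cell identity genes, 1 lay in a CH12 dip, 0 in a dip of primary B cells and 3 in a MEF dip, the last a share of 10% and near that over all genes. Early were 24 (80%) in CH12 cells, 30 (100%) in primary B cells and 20 (66.7%) in MEFs. Of 24 fibroblast genes, 4 lay in CH12 dips, 5 in dips of primary B cells and 3 in MEF dips, and 6 (25%), 9 (37.5%) and 20 (83.3%) were early. Counts this small were not tested against the background.

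The 3 B cell genes in MEF dips were Pax5, Blnk and Cd86. Pax5, the transcription factor that commits cells to the B lineage, started in a 480 kb MEF dip at chr4:44460001-44940000 in which all 24 bins were early in CH12 cells and all 24 in primary B cells. Blnk, which links the B cell receptor to its downstream kinases, started in a 460 kb MEF dip at chr19:40860001-41320000 whose 23 bins were early in both B cell maps. Cd86, a costimulatory ligand for T cells, lay in a 1460 kb MEF dip at chr16:35980001-37440000, of which 36 bins were early in CH12 cells and 48 in primary B cells. Fibroblast genes lay in dips of all 3 maps. Col6a1 and Col6a2, neighbouring genes of type VI collagen, started in a dip of both B cell maps, at chr10:75760001-76780000 in CH12 cells and chr10:76020001-76700000 in primary B cells. All 51 and all 34 bins were early in MEFs. Twist2, a mesenchymal transcription factor, did so on chromosome 1, in a CH12 dip of 1140 kb and a dip of primary B cells of 1640 kb whose 57 and 82 bins were early in MEFs. Col5a1, a fibrillar collagen gene, lay in a 480 kb CH12 dip at chr2:27580001-28060000 that was early throughout in MEFs and had 9 early and 15 middle bins in primary B cells. Fbn1, which encodes the microfibril protein fibrillin, and Twist1 lay in dips of primary B cells only. The fibroblast genes in MEF dips were Dcn and Lum, proteoglycans of connective tissue, and Snai2, a regulator of mesenchymal cells. These are fibroblast genes, and they started in middle and not early sequence in the map named for fibroblasts. None started in early sequence in a B cell map either. In CH12 cells Dcn, Lum and Snai2 all started in late sequence. In primary B cells Lum started in late sequence, and Dcn and Snai2 in middle sequence.

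Of 32 autosomal genes of replication itself, 1 started in a CH12 dip, 0 in a dip of primary B cells and 2 in a MEF dip. These are 3.1%, 0% and 6.25%, beside 4.41%, 7.28% and 8.89% over all autosomal coding genes, and such small counts were not tested. Mcm7, a subunit of the replicative helicase, lay in a dip of CH12 cells at chr5:138500001-139180000 and in one of MEFs at chr5:138420001-139120000. Its own start was early in primary B cells. Mcm4, another helicase subunit, lay with Snai2 in a 2280 kb MEF dip at chr16:14540001-16820000. Of 35 genes listed as fragile site or very long genes, 1 lay in a CH12 dip (Foxo1) and 1 in a dip of primary B cells (Thsd4). In MEF dips lay 4 (Pax5, Exoc4, Foxp1 and Rbms3). These are 2.86%, 2.86% and 11.4%, and they were not tested against the shares over all genes. Foxo1 and Pax5, also on the B cell list, are only 81.8 and 180 kb long. In late sequence started 18, 16 and 8 of the 35, beside 4556, 2698 and 2352 of all 21418 genes.

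Dips had fewer genes than the early sequence beside them. Protein-coding gene starts numbered 9.66 per Mb of known sequence in CH12 dips (exact Poisson 95% interval 9.06 to 10.3), 8.07 in dips of primary B cells (7.68 to 8.48) and 6.60 in MEF dips (6.31 to 6.91). The touching early domains had 19.7, 18.6 and 16.1 per Mb. Late domains had 3.81, 2.94 and 3.38. Other middle domains had 8.94, 7.63 and 6.73 per Mb between early and late sequence and 10.03, 8.49 and 6.80 between 2 late domains, close to the dips. Within the first 200 kb of the touching early domains the density was lower, at 15.0, 14.0 and 12.0 per Mb, and still above the dips. Fewer starts per Mb than in the flanks were found in 145 of 185 CH12 dips, 228 of 276 dips of primary B cells and 269 of 309 MEF dips. A coding gene start was absent from 32, 34 and 46 dips. The median dip had 3 starts in each map, and the highest counts were 51, 69 and 63.

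GC content was lower in dips than in their flanks in most cases. It was 44.1% in CH12 dips, 43.5% in dips of primary B cells and 42.4% in MEF dips, beside 46.1%, 45.6% and 45.3% in the touching early domains. Late domains had 39.5%, 39.0% and 38.4%. Other middle domains had less GC than dips, at 43.1%, 42.2% and 41.6% between early and late sequence and 42.1%, 41.5% and 40.2% between 2 late domains. By dip, GC was below the flanks in 116 of 185 (62.7%, 55.5 to 69.3%), 188 of 276 (68.1%, 62.4 to 73.3%) and 246 of 309 (79.6%, 74.8 to 83.7%). The median difference was -0.95 percentage points in CH12 cells, -1.01 in primary B cells and -1.55 in MEFs. Against only the first 200 kb of each early domain the difference in GC content was smaller, at -0.74 percentage points in CH12 cells, -1.20 in primary B cells and -1.72 in MEFs, instead of -2.05, -2.20 and -2.90 against the whole early domains. The SD over dips was 2.60, 2.43 and 2.18 percentage points, so single dips overlapped widely with their flanks, with the largest differences at -10.5 and 4.54 in CH12 cells. CpG depletion was stronger inside dips than in their flanks too, with an observed over expected CpG ratio below that of the flanks in 137, 230 and 269 dips. Over all dips the ratio was 0.199, 0.197 and 0.193, close to the 0.202, 0.194 and 0.187 of middle domains between early and late sequence.

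Averaged around dip edges, gene starts varied between neighbouring bins and showed no steady fall into CH12 dips. In CH12 cells there were 15.5 starts per Mb at a distance of 110 kb outside the edge, 11.1 in the first bin inside, 7.14 at 110 kb inside and 12.4 at 230 kb inside. The inside values rest on 370, 289 and 174 edges, since only longer dips reach the deeper distances, so they are not averages over the same dips. For primary B cells the starts per Mb at these 4 distances were 14.1, 8.79, 6.11 and 7.66, and in MEFs 12.9, 8.04, 5.93 and 7.50. GC content went from 44.8% at 110 kb outside to 44.3% at 110 kb inside in CH12 cells, from 44.7% to 43.5% in primary B cells, and from 44.3% to 43.0% in MEFs. The share of bins early in another map changed over a similar distance. Around CH12 edges it was 82.1% in primary B cells at 110 kb outside and 36.0% at 110 kb inside, and 72.6% and 51.2% in MEFs. Around edges of MEF dips it went from 40.0% to 18.7% in CH12 cells, so flanks of MEF dips were often not early there.

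**Figure D4:**
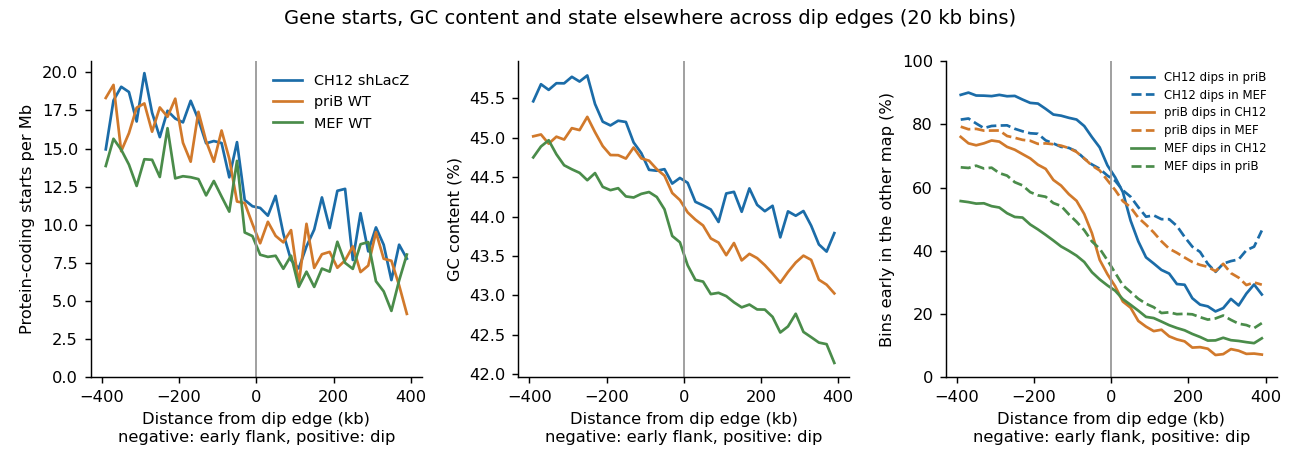
Protein-coding gene starts per Mb, GC content (%) and share of bins early in another map (%) against the distance from a dip edge (kb, negative in the early flank, positive in the dip), averaged in 20 kb bins over those edges of a map whose dip or flank reaches that distance. Points further from the edge rest on fewer edges. The lines of gene starts vary between neighbouring bins, with the CH12 line at 7.14 per Mb at 110 kb inside and 12.4 at 230 kb inside, and the line of CH12 dips in primary B cells goes from 82.1% to 36.0% between 110 kb outside and 110 kb inside.

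The dips with most genes held tandem families. In CH12 cells the highest count was 51 coding starts in 1640 kb at chr4:41720001-43360000, with the chemokine genes Ccl19, Ccl21a and Ccl27b and copies of Il11ra2. It was followed by 31 starts at chr11:58160001-58720000, of which 20 were olfactory receptor genes, and 27 at chr14:56560001-57900000, with 7 granzyme genes, Gzmb among them, which encode proteases of cytotoxic cells. Dips of primary B cells reached 69 starts in 720 kb at chr11:99320001-100040000, a cluster of 35 Krt and Krtap genes of type I keratins and hair proteins. In MEFs 63 starts lay in the overlapping dip at chr11:99280001-99900000. Of the 31 MEF bins there, 13 were middle and 17 late in CH12 cells, and 29 were middle in primary B cells. Dips over the serpin cluster of chromosome 12 held 48 starts in primary B cells (chr12:104040001-106720000) and 41 in MEFs (chr12:103980001-105980000), and 22 of the starts in each were Serpina genes, which encode plasma protease inhibitors. The next count in MEFs was 39, at chr13:23620001-24320000, with 31 Hist1 histone genes, of whose 35 bins 24 were early in primary B cells. Another part of the histone cluster, with 18 Hist1 genes, lay in a dip of primary B cells at chr13:21420001-21940000 that was middle throughout in both other maps.

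By family, 97 of 1106 olfactory receptor genes (8.77%) started in CH12 dips, 121 (10.9%) in dips of primary B cells and 100 (9.04%) in MEF dips, while 794, 572 and 702 were late. Over all 21418 autosomal coding genes 4.41%, 7.28% and 8.89% started in dips, and 4556, 2698 and 2352 were late. The MEF share of olfactory receptor genes was thus near that over all genes. Genes whose symbols start with Krt had 12.0%, 54.0% and 29.0% of 100 starts in dips. For Serpin the shares of 59 genes were 6.78%, 47.5% and 52.5%, for Hist 0%, 26.9% and 46.3% of 67, and for Ccl 25.0%, 25.0% and 20.8% of 24. Of 365 zinc finger genes named Zfp, 6.58%, 6.03% and 13.4% started in dips, the share in primary B cells being below that over all genes. The 24 protocadherin genes in a MEF dip, of 34 in all, lay in a single dip of 980 kb on chromosome 18. None of the 28 Klr genes, receptors of natural killer cells, lay in a dip, and so few genes were not tested against the shares over all genes. Because a cluster falls into a dip as a whole, these shares rest on few places.

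Single genes covered some of the dips. A single protein-coding gene covered at least 50% of 57 CH12 dips (30.8%), 44 dips of primary B cells (15.9%) and 71 MEF dips (23.0%). These genes were from 61.1 to 4435 kb long as annotated in CH12 cells, 129 to 4435 kb in primary B cells and 121 to 3009 kb in MEFs. In 21, 11 and 24 dips the gene covered all of the dip. The covered dips were shorter than the others, with medians of 240, 400 and 360 kb beside 510, 620 and 910 kb. The 5 longest were a MEF dip of 1440 kb at chr19:30360001-31800000 on Prkg1, a kinase activated by cyclic GMP, one of 1320 kb at chr12:54180001-55500000 on Npas3, a transcription factor of brain development, one of 1260 kb at chr1:61280001-62540000 on Pard3b, a cell polarity gene, and dips of 1220 kb in MEFs and 1200 kb in primary B cells that lie wholly within the annotated span of Fgfr2. That span is 3009 kb in the annotation used, and 15 other coding genes start in each of these dips, so the gene named there is uncertain. Genes annotated as longer than 1000 kb gave 3, 3 and 8 of the covered dips, but the counts in the B cell maps rest on doubtful spans. In primary B cells the 3 genes were Fgfr2, Arfip1 and Gm20388, and in CH12 cells they were Arfip1, Gm20388 and Pard3b, and other coding genes also start in the dips covered by Arfip1 (annotated span 1391 kb) and Gm20388 (4435 kb). In all 3 maps a covered dip lay on Camta1, a calcium-responsive transcription factor of neurons, on Smyd3, a methyltransferase, on Prkca, protein kinase C alpha, on Gabbr2, a GABA receptor subunit, on Fstl4 and on Scaper. The Camta1 dip had the same edges in both B cell maps, at chr4:150420001-151200000. Of 503 autosomal coding genes of at least 300 kb, 5.17%, 9.74% and 15.3% started in dips, and 301, 226 and 130 started in late sequence. Over all 21418 autosomal coding genes the shares in dips were 4.41%, 7.28% and 8.89%, so the CH12 value was near that over all genes. Late starts over all genes numbered 4556, 2698 and 2352.

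Positions were matched between maps where 2 dips overlapped by at least 50% of each. CH12 and primary B cells shared 77 matched dips, which is 41.6% of CH12 dips and 27.9% of those of primary B cells. CH12 cells and MEFs shared 42, or 22.7% and 13.6%, and primary B cells and MEFs shared 75, or 27.2% and 24.3%. The lists differ in size, and how far each share exceeds that of unrelated maps was not tested. Matched dips differed in extent. Between CH12 and primary B cells the median shift of the centre was 40 kb, the median distance between edges was 60 kb, and 71 of 154 edges lay within 40 kb of each other. In 47 of the 77 pairs the CH12 dip was the longer one, in 24 the shorter one and in 6 both were equal. Between CH12 cells and MEFs the median edge distance was 80 kb, and 25 of 84 edges lay within 40 kb. The CH12 dip was longer in 20 of those 42 pairs and shorter in 21, and against MEFs the dip of primary B cells was longer in 39 of 75 pairs and shorter in 34. The overlap asked of both dips admits only pairs of like length, so these pairs say nothing about the lengths over all dips.

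At 24 places a dip was matched in all 3 maps. They lay on 12 chromosomes and had a median common length of 470 kb, from 120 to 1340 kb, and 13.3 Mb in all. They made up 13.0%, 8.70% and 7.77% of the dips of the 3 maps. GC content was below that of the early flanks of every map at 20 of them and above it at 4. Gene starts per Mb were below those of all flanks at 18 and above at 5, and over all 24 places there were 13.0 starts per Mb (11.1 to 15.0), a value raised by a few gene clusters. Bins of only unknown bases were present at 2.

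**Figure D5:**
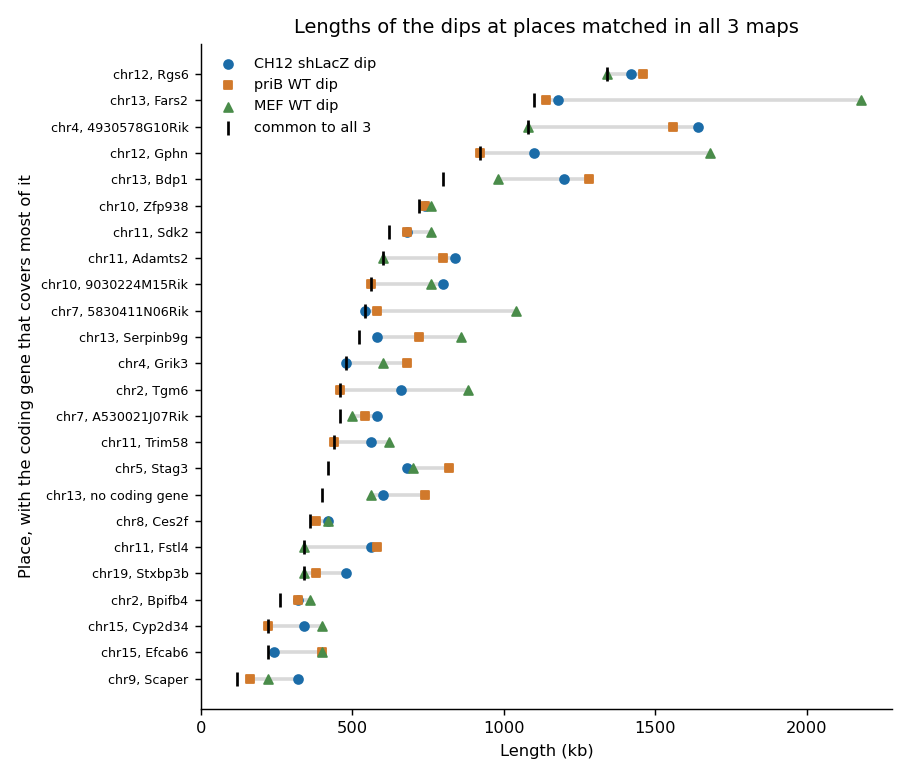
Length (kb, x axis) of the dip of each map, and of the stretch common to all 3, at the 24 places matched in all maps, each named by chromosome and by the coding gene that covers most of it. The common stretch runs from 1340 kb at the Rgs6 place to 120 kb at the Scaper place, and the MEF dip stands far to the right at the Fars2 place with 2180 kb.

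The longest shared place was 1340 kb at chr12:83440001-84780000, where the dips were 1420 kb in CH12 cells, 1460 kb in primary B cells and 1340 kb in MEFs. It holds 3 coding starts, with Rgs6, a regulator of G protein signalling, and Dpf3, a subunit of a chromatin remodelling complex. Its 2.33 starts per Mb stood beside 17.02 to 17.98 in the flanks. The place at chr13:36180001-37280000 (1100 kb) holds Fars2, Lyrm4, F13a1 and Nrn1, a mitochondrial tRNA synthetase, the gene whose promoter is shown above, coagulation factor XIII and a neuronal growth factor. At chr12:78780001-79700000 (920 kb), which holds Gphn, GC content was 39.5% and that of the flanks 43.9 to 44.6%. The 800 kb place at chr13:100300001-101100000 holds Smn1, the mouse gene of the survival motor neuron protein, and Naip2, Naip5 and Naip6. At chr10:81280001-82000000 (720 kb) the edges were close in all maps, with dips of 740, 740 and 760 kb, and a cluster of zinc finger genes with 40.6% GC lay between flanks of 48.3 to 50.0%. The 620 kb place at chr11:113760001-114380000 holds Sdk2, with 3.23 starts per Mb beside 27.0 to 28.0 in the flanks.

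Gene clusters made up other shared places. At chr4:41780001-42860000 (1080 kb) there were 35 coding starts, or 34.0 per Mb, more than the 19.8 to 26.4 in the flanks. Of the 35 promoter windows there, 32 shared a run of 100 bases with another window of the same place. Only reads that align to 1 position were kept by the study, and the effect of such copies on the state of this place was not tested. Zinc finger and olfactory receptor genes held the place at chr11:50500001-51100000 (600 kb, 28.3 starts per Mb), and olfactory receptors those at chr7:147380001-147920000 (540 kb, 35.2 starts per Mb) and chr11:58220001-58660000 (440 kb, 59.1 starts per Mb). The carboxylesterase genes Ces2a to Ces2h filled one at chr8:107200001-107560000. The remaining place among the 10 longest, at chr10:40420001-40980000 (560 kb), holds Wasf1, an actin regulator, Cdc40, a splicing factor, and the orphan receptor gene Gpr6.

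Of the 3 longest dips of each map, those of CH12 cells were each matched in 1 other map, and those of primary B cells and MEFs in none. In CH12 cells they were the dip of 1920 kb on chromosome 18 (chr18:32460001-34380000), with Bin1 and Camk4, one of 1920 kb at chr6:49100001-51020000, with the RNA-binding protein gene Igf2bp3, the neuropeptide gene Npy and the cytochrome c gene Cycs, and one of 1800 kb at chr15:34220001-36020000, with Vps13b and the kinase gene Stk3. In primary B cells the longest were 3480 kb at chr12:71360001-74840000, with 30 gene starts and 121 of its bins middle in CH12 cells, 3280 kb at chr1:61100001-64380000, with Pard3b and the guidance receptor gene Nrp2, and 3160 kb at chr15:8600001-11760000, with the prolactin receptor gene Prlr and Il7r, the receptor of a lymphoid growth factor. In MEFs they included 3680 kb at chr13:25140001-28820000, with 23 genes of the prolactin family, and 3540 kb at chr3:98240001-101780000, with Tbx15 and the T cell surface gene Cd2.

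Late runs of at least 100 kb inside a dip show where a place of middle timing in one map was late in another. They lay in 5 CH12 dips when read in primary B cells and in 5 when read in MEFs. In the reverse direction they lay in 98 dips of primary B cells read in CH12 cells and in 12 read in MEFs. For MEF dips they lay in 165 read in CH12 cells and 108 read in primary B cells. The maps differ in late sequence as a whole, with 60169 late autosomal bins in CH12 cells, 46011 in primary B cells and 35234 in MEFs. How far this accounts for these counts was not tested. The longest in a CH12 dip was 760 kb in MEFs, at chr3:105960001-106720000, with the leukocyte tetraspanin gene Cd53 and the chitinase-like genes Chi3l3 and Chi3l4. In primary B cells the longest was 540 kb at chr1:73060001-73600000, which overlaps Tnp1, a gene of sperm chromatin. The longest in a dip of primary B cells was 2420 kb in MEFs, at chr6:67540001-69960000, which is within the variable segments of the immunoglobulin kappa light chain. The dip there, at chr6:67180001-69960000, had 64 early, 66 middle and 9 late bins in CH12 cells and 0 early, 18 middle and 121 late bins in MEFs. Read in CH12 cells, the longest was 1260 kb at chr15:5700001-6960000, with Rictor, a subunit of a TOR kinase complex, and Fyb, an adaptor protein of T cells. For MEF dips read in primary B cells it was 2820 kb within the prolactin cluster, at chr13:25400001-28220000.

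At the limit set on unknown bases, the last CH12 domain kept was 100 kb at chr5:144560001-144660000 with 50% unknown bases, and the first dropped was 800 kb at chr1:184900001-185700000 with 51.0%. In primary B cells the last kept had 31.3% at chr6:47580001-47740000, and the only one dropped had 59.5% at chr13:92080001-93180000. In MEFs none was dropped, and the highest share was 23.4%. Under 1% of the bases were unknown in 172, 264 and 298 of the dips kept.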

How the data were processed

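Per the deposited files' labels and the study's methods, reads were trimmed (Trim Galore 0.6.5), aligned to mm9 (BWA 0.7.17), filtered for unique alignments (SAMtools 1.9), merged over replicates and freed of duplicates. The authors formed early over late log2 ratios in 20 kb windows, smoothed them by loess over 300 kb and called 3 states with a hidden Markov model. The deposited maps hold 1 state number per domain and no ratio. The methods give the state calling for all conditions; how the reads behind the MEF map were processed is not given in the sources used here. E was number 2 in both B cell maps and 0 in the MEF map, M was 1 and 2, and the E state had the most coding gene starts per Mb in each map. Smoothing blurs edges, and the ratios that separate states can differ between maps.

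Domains were read on 20 kb bins of NCBIM37 with GENCODE M1 genes, placed by their start. Gene families were taken by symbol start. Matching needed 50% reciprocal overlap. Members, lists, the regions named (the longest, most gene-rich, early elsewhere, shared, gene-covered and late elsewhere, by fixed ranks) were chosen with earlier results of these data known. Regions named by family content, and single list genes in a dip of fewer than both B cell maps, were named after their values were seen. An item that falls under the rule for named regions is not reported here. The functions were tested on simulated data, where 5 of 5 checks recovered the known values. Intervals are Wilson, exact Poisson or order-statistic intervals at 95%. Alternatives were other unknown-base limits, lengths, flanks, overlaps, gene sets and weights. The other 5 groups of the series were not analysed here. Scripts ran in Python 3.11.15 with matplotlib 3.10.9, scipy 1.17.1, pandas 2.3.3 and numpy 2.4.6.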

Additional observations from a re-analysis of the deposited data

How the results depend on the processing

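Of 153 values recomputed under other settings, 117 stayed within the limit set for their kind and 36 moved outside it. The limit was the interval of the reported value, except 1.5 times for a number of dips (18 values) and 1 SD over dips for a difference in GC content (9 values). Against the first 200 kb of each early domain the GC difference moved by over 1.5 times, from -2.05, -2.20 and -2.90 to -0.74, -1.20 and -1.72 percentage points, and by the median over dips it was -0.95, -1.01 and -1.55. The number of dips and the median length stayed within 1.5 times or within the interval under every limit tried on unknown bases, dip length, flank length, gaps and chromosome X. With each dip counted once, the early share of CH12 dip bins in primary B cells was 43.7%, and the late shares were 17.2% for dips of primary B cells in CH12 cells, 35.2% for MEF dips in CH12 cells and 17.3% for MEF dips in primary B cells. At 80% reciprocal overlap the matched shares were 18.9% (CH12 to primary B), 5.95% (CH12 to MEF), 12.7% (primary B to CH12), 10.1% (primary B to MEF), 3.56% (MEF to CH12) and 9.06% (MEF to primary B). With any overlap they were 60.5%, 50.8%, 39.5%, 52.5%, 27.2% and 45.6% in the same order. With all annotated genes there were 15.0, 13.8 and 11.9 starts per Mb in dips of CH12, primary B cells and MEFs and 29.2, 27.3 and 23.8 in the touching early domains. The ratio of dips to early domains was 0.49, 0.43 and 0.41 as reported. It moved to 0.51 in primary B cells and 0.50 in MEFs with all genes, and to 0.64, 0.58 and 0.55 in the 3 maps against only the first 200 kb of each early domain, where the density was 15.0, 14.0 and 12.0. Without genes named Olfr, Vmn, Gm, Krt or Serpin, which was chosen after seeing the data, CpG-rich promoters made up 37.1%, 39.2% and 36.4% in dips and 49.1%, 48.9% and 50.4% in the early domains. Leaving out dips with any bin of only unknown bases, also chosen after seeing the data, moved no share of states or matches outside its interval. A stricter overlap can only lower a matched share and a looser one can only raise it. Counting all annotated genes can only raise a density. The direction of those moves was thus fixed by the setting. The cause of the other moves was not tested beyond what each setting leaves out. No paired analysis was possible because each map pools its replicates. There is 1 map per condition, so no replicate could be left out.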
